A study of Mus musculus with 6 samples.

Results

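The genes described here are 9 enzymes and regulators of branched-chain amino acid breakdown (Bcat2, Bckdha, Bckdhb, Dbt, Bckdk, Ppm1k, Ivd, Hibadh and Mut) and the transcription factor gene Klf15, matched by symbol. All 10 were found among the 21705 rows of the expression table, and all 10 passed the minimum mean value of 10 used for testing. Messenger RNA was sequenced from whole hearts of wild-type FVB female mice, 12 to 16 weeks old, that were dosed daily for 14 days with trametinib (3 mg/kg), which blocks the MAP kinase kinases MEK1 and MEK2, or with vehicle. There were 3 hearts per group, and the table heads the vehicle columns as PBS control. Each heart was labelled as a separate female, so the spread given below is that between animals.

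Leucine, isoleucine and valine are broken down in mitochondria. The transaminase BCAT2 removes the amino group, and the branched-chain ketoacid dehydrogenase complex then commits the carbon skeleton to oxidation. A dedicated kinase switches the complex off by phosphorylating its E1 alpha subunit, a phosphatase switches it on again, and separate enzymes carry each skeleton to acetyl-CoA, acetoacetate or succinyl-CoA. KLF15 is a Kruppel-like factor that activates genes of amino acid breakdown, including Bcat2, in mouse muscle and heart, and its own transcript is induced by glucocorticoids and follows the circadian clock.

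Trametinib hearts had less transcript of the transaminase, of both E1 subunits, of the kinase and of the leucine and valine enzymes Ivd and Hibadh, with no overlap between the groups. The phosphatase transcript Ppm1k lay above its vehicle values, and Dbt, Mut and Klf15 overlapped between the groups. Of all tested genes, 29.5% lay wholly below and 27% wholly above their vehicle values (56.5% in either direction). The 10 genes were chosen by their role in the pathway with the trametinib and vehicle values of this same comparison already known, so their differences are a description and carry no p-values here. In a limma fit over all 13581 tested genes, 6 of the 10 lay past an adjusted p of 0.05 on the lower side and 1 on the higher side. Of all tested genes 22.8% were called lower and 21.6% higher (44.5% in either direction), and nothing is read from the members' count. All log2 fold changes refer to value + 1. The median log2 fold change was -0.48 for the 10 genes and -0.01 for all tested genes.

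**Figure D1:**
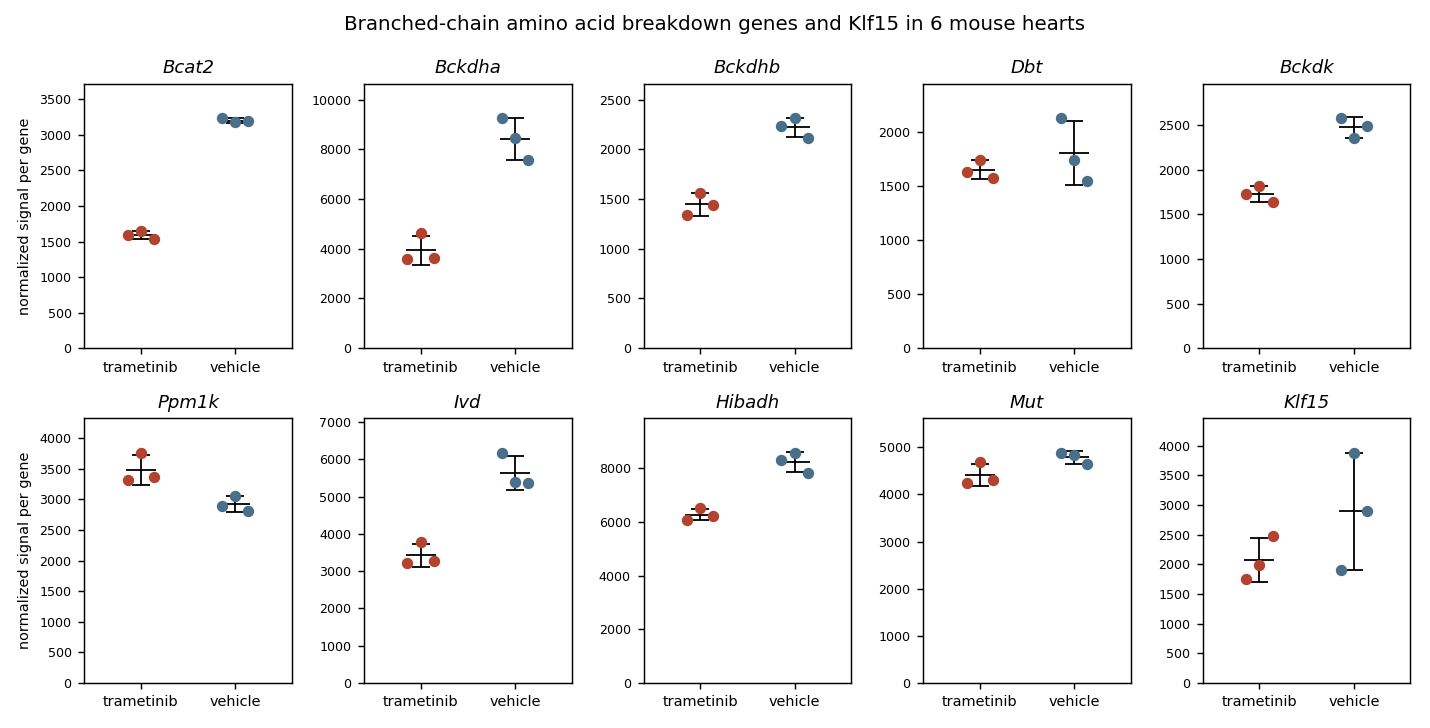
Normalized signal per gene (vertical axes, each from 0) of the 10 genes in the 3 trametinib hearts (left, red) and the 3 vehicle hearts (right, blue). Points are hearts, and the horizontal mark with its bar is the mean ± SD. Bcat2 lies between 1538 and 1650 in trametinib hearts and between 3183 and 3237 in vehicle hearts, whereas the Klf15 points of the groups overlap.

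The deposited values, whose scaling is not stated in the sources used here, are called normalized signal; their low values and upper quartiles look like estimated reads divided by 1 factor per library. They summed to between 21656431 and 22330993 in trametinib hearts and between 21773496 and 22040876 in vehicle hearts. The step between low values gave, on that reading, an estimated 23033856 to 24691501 reads in trametinib and 14304826 to 16046500 in vehicle hearts. Each value of the 10 genes rested on an estimated 1130 to 7291 reads. The hearts carried cardiomyocyte transcripts at high levels, with the 5 markers Myh6, Tnnt2, Tnni3, Actn2 and Pln summing to 1298050 to 1368640 in trametinib and 1194160 to 1223680 in vehicle hearts. Myh6 held most of these sums, with means of 873685 in trametinib and 632196 in vehicle hearts. Of the 5 markers, 1 (Myh6) was called higher and 3 (Tnnt2, Tnni3 and Pln) lower in the limma fit. After a correction for transcript length and GC content, 2 (Myh6 and Tnni3) were called higher and none lower. Tnni3 thus changed sign, from a log2 fold change of -0.45 to 0.23. Tnnt2 also changed sign, from -0.25 to 0.17, and was not called after the correction. The 5 adipocyte markers Adipoq, Plin1, Cidec, Cfd and Retn summed to 239 to 638 and 414 to 699 in trametinib and vehicle hearts, and none was called. In the limma fit 3 of 3 neutrophil and 2 of 3 erythroid markers were called higher, with summed signal in trametinib against vehicle hearts of 1314 to 2593 against 89.6 to 448 for neutrophil and 5508 to 50628 against 2221 to 2555 for erythroid markers. Most of the highest erythroid sum was Hbb-b1, the erythroid marker not called. It had 45323, 3633 and 3787 in the 3 trametinib hearts. Of the other markers, summed in the same way in trametinib against vehicle hearts, 1 of 3 fibroblast markers was called higher and 1 lower (25094 to 27795 against 22613 to 28260), 2 of 3 endothelial markers higher (14714 to 15690 against 10490 to 12490) and 2 of 3 macrophage markers lower (789 to 1089 against 1225 to 1395). In whole hearts, fewer cells of a type and less RNA per cell cannot be told apart, and the part of these markers in the results below was not tested.

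Bcat2, the mitochondrial transaminase that starts the pathway, had 1590, 1650 and 1538 normalized signal in the 3 trametinib hearts, against 3237, 3183 and 3190 in the 3 vehicle hearts. Every trametinib value lay near 0.497 of the vehicle mean, and the vehicle hearts differed by a coefficient of variation of only 0.913%. The log2 fold change was -1.01 ± 0.05 (SE). Its cytosolic counterpart Bcat1, which deaminates the same amino acids outside mitochondria, had 21.6, 22.3 and 45.2 in trametinib hearts and 15.3, 33.9 and 40.7 in vehicle hearts. These values overlapped, at a log2 fold change of 0.01 ± 0.45 with limma adjusted p = 0.984, and leaving out trametinib replicate 3 or vehicle replicate 1 turned the sign (-0.32 and -0.40).

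The dehydrogenase complex has an E1 heterotetramer of alpha and beta chains, an E2 core and the shared E3 subunit. Bckdha, which encodes E1 alpha, the chain that the kinase phosphorylates, had 3579, 4620 and 3618 normalized signal in trametinib hearts, against 9253, 8452 and 7560 in vehicle hearts. The groups were far apart, with the highest trametinib value below the lowest vehicle value, and the mean ratio of 0.468 was the lowest of the 10 genes (log2 fold change -1.10 ± 0.12, SE). Bckdhb, which encodes E1 beta, had 1337, 1562 and 1442 in trametinib hearts, against 2234, 2314 and 2119 in vehicle hearts. It too did not overlap, with a log2 fold change of -0.62 ± 0.07.

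Dbt, which encodes the E2 transacylase core, had 1634, 1747 and 1576 in trametinib hearts, against 2131, 1741 and 1552 in vehicle hearts. The trametinib values lay inside the vehicle range, and vehicle replicate 1 stood above the other two. The log2 fold change was -0.12 ± 0.11, with a 95% interval of -0.39 to 0.15, and was 0.01 without vehicle replicate 1. Dld, the E3 subunit that pyruvate dehydrogenase and other complexes also use, had 13583, 14370 and 13487 in trametinib hearts, against 15983, 17105 and 15009 in vehicle hearts. It fell by 0.21 ± 0.06 on the log2 scale (limma adjusted p = 0.0291). The call was lost without trametinib replicate 1 or 3 or vehicle replicate 1 or 2, with limma adjusted p between 0.0637 and 0.0966, and with median-of-ratios scaling (limma adjusted p = 0.0993).

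The fold changes of the subunits were unequal. Within each heart the log2 ratio of Bckdha to Dbt was 1.13, 1.40 and 1.20 in trametinib hearts, against 2.12, 2.28 and 2.28 in vehicle hearts, a difference of -0.98. The log2 ratio of Bckdhb to Dbt was -0.19 ± 0.08 in trametinib and 0.31 ± 0.21 in vehicle hearts (SD, n = 3 each), and neither ratio overlapped between the groups. Per kilobase of mean transcript length, Bckdha averaged 2973 normalized signal in trametinib and 6356 in vehicle hearts. On that same scale Bckdhb averaged 999 and 1534, and Dbt 882 and 965, in trametinib and vehicle hearts. The order of the 3 mean levels per kilobase was the same in both groups.

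Bckdk, the kinase that inactivates the complex, had 1728, 1816 and 1638 normalized signal in trametinib hearts, against 2580, 2351 and 2494 in vehicle hearts. The groups did not overlap and the log2 fold change was -0.52 ± 0.06 (SE). Ppm1k, the mitochondrial phosphatase that activates the complex, had 3315, 3759 and 3359 in trametinib hearts, against 2894, 3062 and 2807 in vehicle hearts. It was the only one of the 10 genes whose trametinib values all lay above the vehicle values (log2 fold change 0.25 ± 0.07). Of all tested genes, 27% had all trametinib values above and 29.5% all below the vehicle values (56.5% in either direction). The Ppm1k difference was smaller in several alternatives and no longer passed the limma threshold without trametinib replicate 2 (0.19), without vehicle replicate 1 (0.24) or 3 (0.22), with quantile normalization (0.19) or after a correction for transcript length and GC content (0.10).

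The log2 ratio of kinase to phosphatase transcript within each heart was -0.94, -1.05 and -1.04 in trametinib hearts, against -0.17, -0.38 and -0.17 in vehicle hearts. The means were -1.01 ± 0.06 and -0.24 ± 0.12 (SD, n = 3 each) in trametinib and vehicle hearts, a difference of -0.77 that 1 factor per library cannot move. After the length and GC correction the difference was -0.42. These are transcript levels, and neither phosphorylation nor enzyme activity was measured.

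Beyond the complex, Ivd, the isovaleryl-CoA dehydrogenase of the leucine branch, had 3218, 3780 and 3269 normalized signal in trametinib hearts, against 6174, 5391 and 5355 in vehicle hearts. The groups were well apart, at a log2 fold change of -0.72 ± 0.09 (SE). Hibadh, the 3-hydroxyisobutyrate dehydrogenase of the valine branch, had 6077, 6501 and 6229 in trametinib hearts, against 8317, 8572 and 7817 in vehicle hearts. It was lower by a smaller step, with a log2 fold change of -0.39 ± 0.06 and coefficients of variation of 3.43% and 4.66% in trametinib and vehicle hearts. Mut (now named Mmut), the cobalamin-dependent mutase that turns methylmalonyl-CoA into succinyl-CoA, had 4239, 4690 and 4307 in trametinib hearts, against 4881, 4840 and 4636 in vehicle hearts. Trametinib replicate 2 lay above vehicle replicate 3, so the groups overlapped, and the log2 fold change was -0.12 ± 0.06 with a 95% interval of -0.25 to 0.02.

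**Figure D2:**
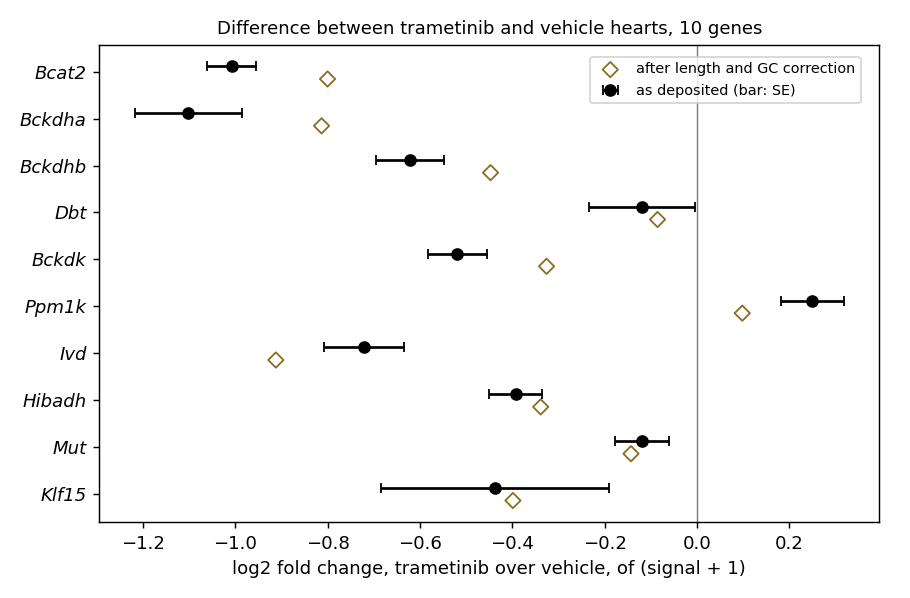
Log2 fold change of trametinib over vehicle for the 10 genes (horizontal axis), as deposited with its SE (filled circles) and after the correction for transcript length and GC content (open diamonds). Bckdha and Bcat2 lie furthest to the left at -1.10 and -1.01, and Ppm1k is the only circle right of 0.

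The other 16 enzymes of the pathway were read from a list of the remaining textbook steps. That list was also chosen with earlier results of these data known, so its count is a description and no test of the list. In the limma fit 13 of the 16 fell, none rose and 3 did not pass, where 22.8% of all tested genes were lower. Their median log2 fold change was -0.47. The number that fell was 12 or 13 when any heart was left out and 12 to 14 over all alternatives. In the leucine branch, the methylcrotonyl-CoA carboxylase subunits Mccc1 and Mccc2 fell by 0.26 ± 0.06 and 0.44 ± 0.06 on the log2 scale (limma adjusted p = 0.0128 and 0.0013). The hydratase Auh fell by 0.49 ± 0.09 (limma adjusted p = 0.0036).

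In the valine branch Acad8, isobutyryl-CoA dehydrogenase, had 752, 845 and 765 normalized signal in trametinib hearts, against 1353, 1245 and 1324 in vehicle hearts (log2 fold change -0.73 ± 0.07; limma adjusted p = 0.000399). Hibch, the hydrolase that frees 3-hydroxyisobutyrate, fell by 0.46 ± 0.07 (limma adjusted p = 0.00133). Aldh6a1, the semialdehyde dehydrogenase that follows Hibadh, had a log2 fold change of -0.11 ± 0.06 and did not pass (limma adjusted p = 0.16), although it did with quantile normalization (limma adjusted p = 0.0412). In the isoleucine branch the branched-chain acyl-CoA dehydrogenase Acadsb had 4722, 5279 and 5100 in trametinib hearts, against 4950, 5052 and 4628 in vehicle hearts. These overlapped, with a log2 fold change of 0.05 ± 0.06 (limma adjusted p = 0.59) that was -0.12 after the length and GC correction. Further along the same branch Hsd17b10 fell by 0.63 ± 0.08 and the thiolase Acat1 by 0.87 ± 0.08 (limma adjusted p = 0.000697 and 0.000372). The hydratase Echs1, shared with fatty acid oxidation, fell to 7300, 8198 and 7416 in trametinib hearts, against 13998, 14601 and 12877 in vehicle hearts (limma adjusted p = 0.00027).

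In the propionyl-CoA segment, where valine and isoleucine carbon joins, the carboxylase subunits Pcca and Pccb fell by 0.44 ± 0.05 and 0.54 ± 0.07 on the log2 scale (limma adjusted p = 0.000686 and 0.00094). The epimerase Mcee, which acts just before the mutase, fell by 0.87 ± 0.09 (limma adjusted p = 0.000425). After the length and GC correction the log2 fold changes of Mcee, Pccb and Hsd17b10 shrank to -0.20, -0.33 and -0.22 and still passed (limma adjusted p = 0.0259, 0.0142 and 0.0481). Pcca no longer passed after that correction (-0.06, limma adjusted p = 0.333), and 12 of the 16 enzymes were lower, where that fit called 15.5% of 13512 genes lower.

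**Figure D3:**
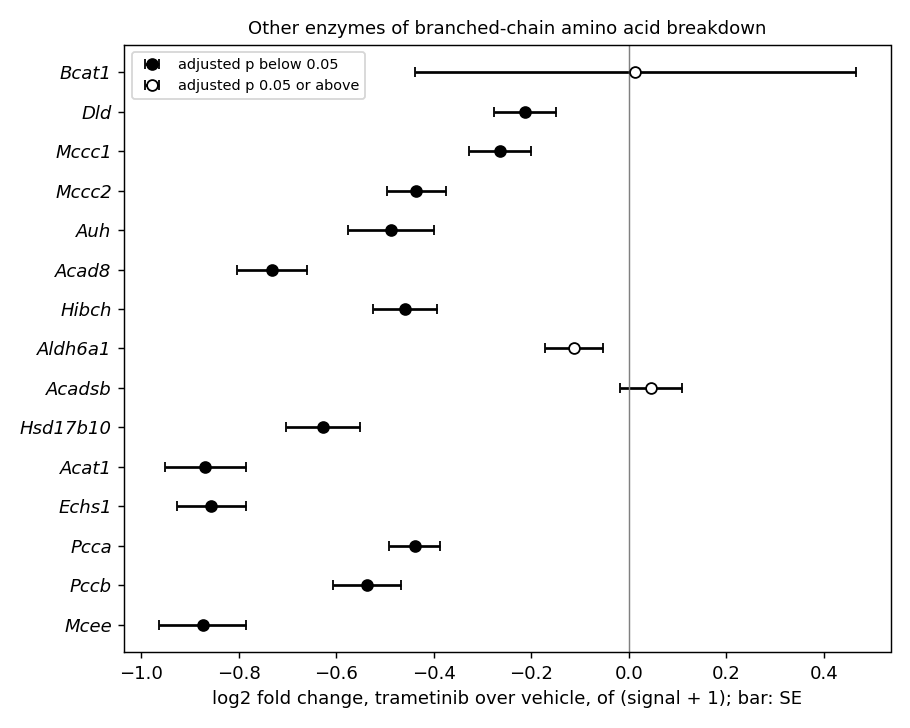
Log2 fold change of trametinib over vehicle ± SE (horizontal axis) for 15 of the 16 other enzymes of the pathway, from the transaminase and E3 subunit at the top through the leucine, valine and isoleucine branches, the shared hydratase Echs1 and the propionyl-CoA segment. The 12 filled points passed an adjusted p of 0.05, and Bcat1, Aldh6a1 and Acadsb (open) did not.

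Fold change across all genes moved with transcript length. In the shortest of 5 equal length classes (66 to 1311 nt) 56.3% of genes were lower and 4.66% higher. In the longest class 5.33% were lower and 46.7% higher. Of the other enzymes, Mcee (584 nt), Hsd17b10 (977 nt) and Pcca (1012 nt) were in the shortest class. The 10 genes were placed in the same way, by the mean length of their transcripts. Bcat2, Bckdha, Bckdhb, Dbt, Bckdk and Hibadh were in the second of 5 equal length classes of tested genes (1311 to 1917 nt), where 28.2% of genes were lower and 11.2% higher. Mut and Klf15 were in the third class, where 15.5% were lower and 18.0% higher. Ppm1k (3100 nt) and Ivd (3665 nt) were in the fourth class, where 9% of genes were lower and 27.7% higher. Ivd was thus lower among genes of a length at which higher values were more common. After the correction Ivd had a log2 fold change of -0.91, Bcat2 of -0.80, Bckdha of -0.81, Bckdhb of -0.45, Bckdk of -0.33 and Hibadh of -0.34. The corrected fit called 6 of the 10 genes lower and none higher, where it called 15.5% and 17.9% of all genes lower and higher (33.4% in either direction).

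**Figure D4:**
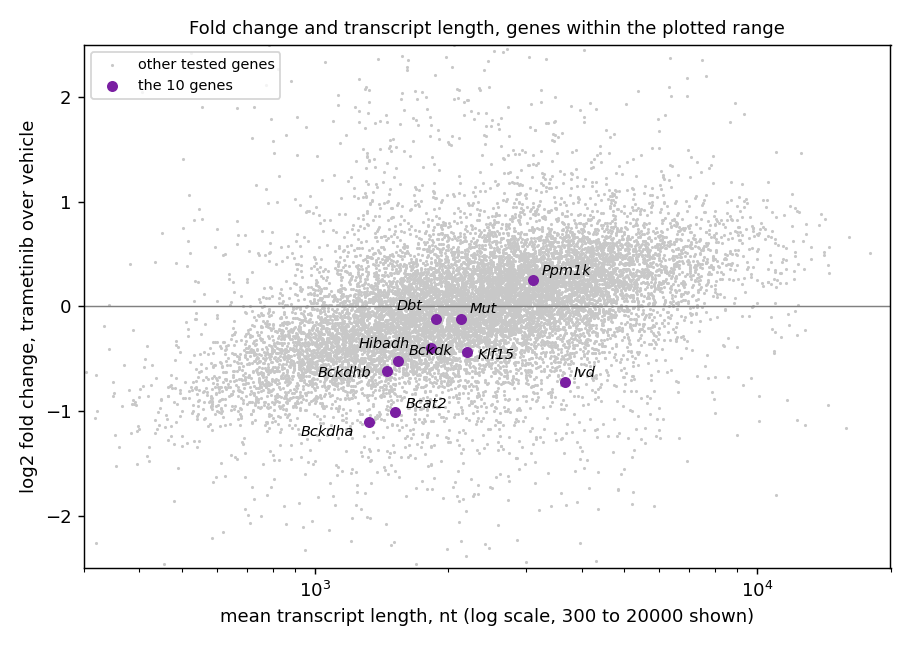
Log2 fold change of trametinib over vehicle (vertical axis) against mean transcript length in nt (horizontal log axis) for tested genes within the plotted range (grey) and the 10 genes (purple). Bckdha (1325 nt) and Bcat2 (1512 nt) are at -1.10 and -1.01, Ppm1k (3100 nt) at 0.25 and Ivd (3665 nt) at -0.72.

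Klf15 had 1755, 1994 and 2477 normalized signal in trametinib hearts, against 1911, 3881 and 2901 in vehicle hearts. Its vehicle values spanned 2.03-fold, the widest of the 10 genes, and vehicle replicate 1 lay below trametinib replicates 2 and 3. The mean was 0.716 of that in vehicle hearts, with a log2 fold change of -0.44 ± 0.25 (SE) and a 95% interval of -1.01 to 0.14. The value depended on the vehicle hearts: without vehicle replicate 1 the log2 fold change was -0.71 and passed the limma threshold, and without vehicle replicate 2 it was -0.20 and did not pass.

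The region before the Klf15 start is shown because it holds the hexamer CACGTG, the E-box that CLOCK and ARNTL bind, and the Bcat2 region because KLF factors bind boxes with the letters CACCC. Both are the 250 bases before the annotated start, in RefSeq GRCm38.p6 and on the plus strand, at chr6:90462326-90462575 for Klf15 and chr7:45569903-45570152 for the first of the Bcat2 starts. Capitals mark CACGTG in Klf15 and GGGTG, the reverse complement of CACCC, in Bcat2.
Klf15: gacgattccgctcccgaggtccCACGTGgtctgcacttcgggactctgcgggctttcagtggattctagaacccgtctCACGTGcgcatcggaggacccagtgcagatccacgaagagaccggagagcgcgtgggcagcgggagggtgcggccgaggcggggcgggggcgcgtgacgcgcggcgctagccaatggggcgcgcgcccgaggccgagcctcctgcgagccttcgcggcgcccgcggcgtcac
Bcat2: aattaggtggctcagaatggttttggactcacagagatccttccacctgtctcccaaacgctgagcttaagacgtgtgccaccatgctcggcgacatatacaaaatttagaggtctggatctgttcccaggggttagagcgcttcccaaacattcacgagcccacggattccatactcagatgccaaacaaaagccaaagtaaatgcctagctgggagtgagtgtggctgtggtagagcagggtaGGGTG
The Klf15 region held 2 E-boxes, whose first bases lay 228 and 172 bases before the start. Both strands of 32851 such regions were searched, and 6.02% held at least 1 CACGTG and 0.429% held 2 or more. The Klf15 region was chosen because it holds the hexamer, so these shares are no test of it. They were also not matched for its GC content of 72%. The table held 10 regions for 8 members, with 2 starts each for Bcat2 and Bckdhb. CACCC or GGGTG was found in 6 of these 10 regions and in 52% of all regions, and did not overlap the E-boxes in Klf15. The region before the second Bcat2 start, not shown, held neither. The glucocorticoid receptor half-site AGAACA was found in 2 of the 10, 1 each of Bckdhb and Bckdk, and in 16.1% of all regions. No region was matched for Dbt or Mut. These are matches of letters, and binding was not measured.

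Genes linked to the inputs of Klf15 were read from a list of 9 glucocorticoid-linked and clock genes. In the limma fit 2 rose, 3 fell and 4 did not pass, where 21.6% of all tested genes were higher and 22.8% lower, and the median change was 0.24 on the log2 scale. The clock activator genes were higher, with Arntl at 588, 355 and 470 normalized signal in trametinib hearts, against 88.7, 185 and 289 in vehicle hearts (log2 fold change 1.45 ± 0.40; limma adjusted p = 0.022). Its partner Clock rose by 1.02 ± 0.10 on the log2 scale (limma adjusted p = 0.000413), and by 0.56 after the length and GC correction. The clock output Dbp had 258, 564 and 272 in trametinib hearts, against 3831, 1524 and 1736 in vehicle hearts (log2 fold change -2.66 ± 0.41; limma adjusted p = 0.00182), and the repressor Nr1d1 had -0.72 ± 0.17 (limma adjusted p = 0.0102). Per1, a clock repressor that glucocorticoids also induce, had a log2 fold change of -0.27 ± 0.20 (limma adjusted p = 0.304). Without trametinib replicate 3 it was -0.51 and passed (limma adjusted p = 0.0141). The Arntl call was lost without trametinib replicate 1 or 3 (limma adjusted p = 0.0746 and 0.0577). The hour at which each heart was taken is not given in the sources used here, and its part in the Klf15 values was not tested.

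Of the glucocorticoid-linked genes, Tsc22d3 passed and Zbtb16, Nr3c1, Fkbp5 and Per1 did not. Tsc22d3, a glucocorticoid-induced leucine zipper, had 2472, 1839 and 3688 normalized signal in trametinib hearts, against 3737, 7945 and 5905 in vehicle hearts (log2 fold change -1.13 ± 0.32; limma adjusted p = 0.0235). As in Klf15, vehicle replicate 1 was its lowest and vehicle replicate 2 its highest vehicle heart. Fkbp5 shared that order, whereas Zbtb16, Nr3c1 and Per1 did not. The call was lost without trametinib replicate 1 or 2 or vehicle replicate 2 or 3 (limma adjusted p = 0.0661 to 0.0713) and after the length and GC correction (limma adjusted p = 0.0566). Zbtb16, a glucocorticoid-responsive zinc-finger gene, had 7504, 7388 and 7931 in trametinib hearts, against 1260, 4473 and 5674 in vehicle hearts. Its log2 fold change was 1.26 ± 0.50 (limma adjusted p = 0.0752), and it passed without vehicle replicate 1 (0.59) or 3 (1.68). The receptor gene Nr3c1 had 0.24 ± 0.09 (limma adjusted p = 0.0671), and the receptor chaperone Fkbp5 overlapped between the groups at 0.53 ± 0.33 (limma adjusted p = 0.232).

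**Figure D5:**
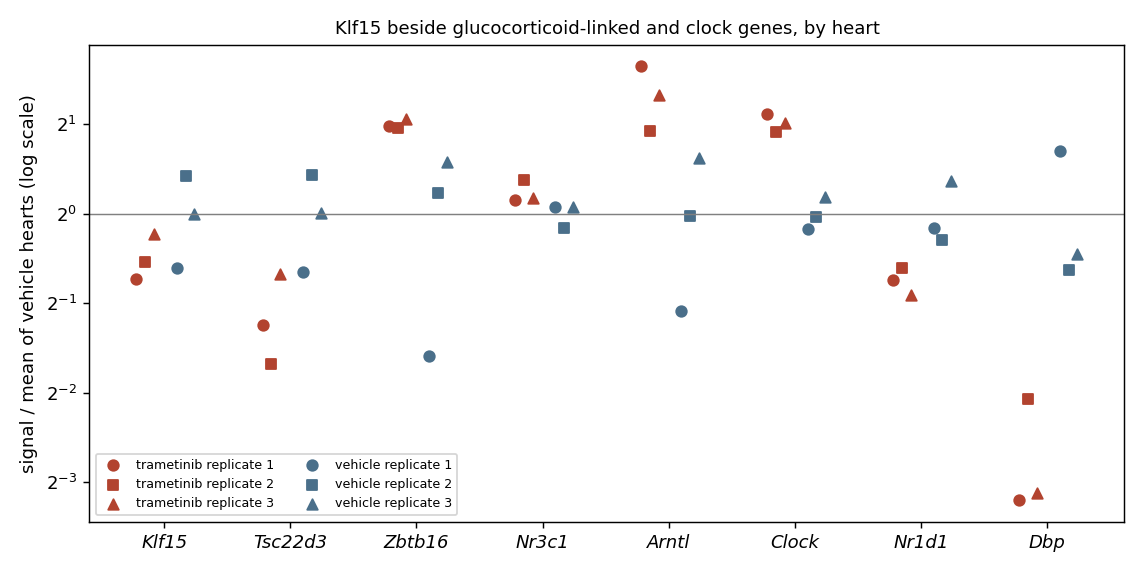
Signal of Klf15 and 7 of the 9 glucocorticoid-linked and clock genes in each heart, divided by the mean of the vehicle hearts (vertical log axis). Fkbp5 and Per1, whose groups also overlap, are not plotted. Trametinib hearts (red) stand left of vehicle hearts (blue), and the marker shape gives the replicate number, which is not said to pair hearts. Dbp is lower and Clock higher in all 3 trametinib hearts than in any vehicle heart, while the Klf15 points overlap.

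The genes with profiles most like that of Klf15 were found by the root mean square difference of log2 values, each centred on its mean over the 6 hearts. The nearest were 2310046K01Rik at 0.11, Sat1, the polyamine-acetylating enzyme, at 0.13, Rhob, a small GTPase, at 0.13, Pla2g2f, a secreted phospholipase, at 0.13, and Spata2l at 0.13 log2 units. Over the 6 hearts 2310046K01Rik had 41.3 to 97.1 and Pla2g2f 22.9 to 41.6 normalized signal, so both profiles rest on few reads. Rhob had 2859, 2948 and 3547 normalized signal in trametinib hearts, against 3567, 6548 and 4980 in vehicle hearts. Rhob shared the order of the vehicle hearts with Klf15, which follows from choosing it by its nearness to Klf15. Unlike Klf15, Rhob did not overlap between the groups (log2 fold change -0.65, limma adjusted p = 0.0345). After the length and GC correction it did not pass (limma adjusted p = 0.0613). The nearest of the other 9 genes was Hibadh, at 0.32.

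Genes reported in mice as regulated by KLF15 were read from a list of 9. In the limma fit 4 fell, none rose and 5 did not pass. Of all tested genes 22.8% were called lower and 21.6% higher. The list's share called in either direction was near the 44.5% of all tested genes. The list's median was -0.36 on the log2 scale. Kcnip2, the potassium channel subunit KChIP2, had 978, 1118 and 823 normalized signal in trametinib hearts, against 2191, 1963 and 1849 in vehicle hearts (log2 fold change -1.05 ± 0.12; limma adjusted p = 0.000593), and -0.66 after the length and GC correction. Gpt, alanine aminotransferase, fell by 0.85 ± 0.09 on the log2 scale (limma adjusted p = 0.000425). Slc2a4, the insulin-responsive glucose transporter, fell by 0.36 ± 0.05 (limma adjusted p = 0.000943) but not after the length and GC correction (-0.05, limma adjusted p = 0.534). Ctgf, a matrix protein gene that KLF15 represses, had 1055, 2159 and 1943 in trametinib hearts, against 1960, 8993 and 8107 in vehicle hearts (log2 fold change -1.67 ± 0.57; limma adjusted p = 0.048). The Ctgf call was lost without any 1 of the hearts other than vehicle replicate 1 (limma adjusted p = 0.0701 to 0.143), after the length and GC correction (limma adjusted p = 0.0826) and with no filter (limma adjusted p = 0.0567).

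The other 5 did not pass in that fit. Prodh, proline dehydrogenase, had 0.04 ± 0.10 on the log2 scale (limma adjusted p = 0.746), yet passed on the higher side after the length and GC correction (0.38, limma adjusted p = 0.0146). The muscle ubiquitin ligases Fbxo32 and Trim63 had 0.03 ± 0.32 and 0.14 ± 0.20, and both changed sign in some alternatives, Fbxo32 to -0.43 after the length and GC correction and Trim63 to -0.04 without vehicle replicate 1. Twist2 had 16.8, 11.6 and 12.2 normalized signal in trametinib hearts, against 14.98, 40.1 and 39.3 in vehicle hearts, and passed without vehicle replicate 1 (-1.50). Tat, tyrosine aminotransferase, was highest in trametinib replicate 3 and next in vehicle replicate 3, with 1.88, 8.03 and 545 in trametinib hearts, against 0, 0 and 43.4 in vehicle hearts.

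Klf15 was also set beside the 16 other Kruppel-like factor genes, of which 12 passed the minimum. In the limma fit 3 rose, 1 fell and 8 did not pass, where 44.5% of all tested genes were called in either direction. Klf13 had 2472, 1825 and 2453 normalized signal in trametinib hearts, against 1258, 1419 and 1415 in vehicle hearts (log2 fold change 0.71 ± 0.12; limma adjusted p = 0.0032). Klf12 rose by 0.72 ± 0.12 and Klf7 by 1.01 ± 0.23 on the log2 scale (limma adjusted p = 0.0026 and 0.0109). Klf10 fell by 0.34 ± 0.10 (limma adjusted p = 0.0317), a call lost without trametinib replicate 1, 2 or 3 or vehicle replicate 2, and with median-of-ratios scaling, quantile normalization and the length and GC correction (limma adjusted p = 0.0546 to 0.24 over these). Klf9, which glucocorticoids also induce, overlapped between the groups at 0.11 ± 0.11 (limma adjusted p = 0.458). The other 7 tested genes ran from -0.35 ± 0.14 (Klf16) to 0.46 ± 0.22 (Klf4), and Klf1, Klf5, Klf14 and Klf17 were under the minimum. Per kilobase of mean transcript length, Klf15 averaged 942 normalized signal in trametinib and 1316 in vehicle hearts.

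Transport of branched-chain amino acids was covered by 6 genes. In the limma fit 1 rose, 1 fell and 4 did not pass, where 44.5% of all tested genes were called in either direction. Slc7a5, the light chain of the large neutral amino acid transporter LAT1, had 322, 212 and 435 normalized signal in trametinib hearts, against 196, 159 and 175 in vehicle hearts (log2 fold change 0.81 ± 0.24; limma adjusted p = 0.0298). The call was lost without trametinib replicate 1 or 3 or vehicle replicate 2 or 3 (limma adjusted p = 0.0716 to 0.0845). Its heavy chain Slc3a2 had 0.27 ± 0.13 (limma adjusted p = 0.127) and passed after the length and GC correction (0.68). Slc43a2, the transporter LAT4, fell by 0.50 ± 0.15 (limma adjusted p = 0.0263), a call lost without trametinib replicate 1 or 2 or vehicle replicate 1 (limma adjusted p = 0.0702 to 0.0817). Its relative Slc43a1, the transporter LAT3, had 131, 106 and 97.7 in trametinib hearts, against 93.3, 46.2 and 71.9 in vehicle hearts. It did not pass (0.70 ± 0.27; limma adjusted p = 0.0678) except without vehicle replicate 1 (0.93) and with quantile normalization (0.75). Slc25a44, the mitochondrial carrier for branched-chain amino acids, had 663, 597 and 679 in trametinib hearts, against 625, 470 and 574 in vehicle hearts, and did not pass (0.22 ± 0.12; limma adjusted p = 0.162). Slc7a8, another neutral amino acid transporter, overlapped between the groups at 82.7, 59.7 and 85.9 in trametinib hearts, against 74.9, 83.2 and 67.8 in vehicle hearts.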

How the data were processed

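Stranded mRNA libraries were sequenced on 1 single-end run, per the labels' protocols, after RNA isolation with 1 of 2 kits (the sources used here do not say which for each heart). Picard 1.64, SAMtools, RSEM, DESeq2 and mm9 are listed without role, per the submitters' processing notes. The authors deposited a normalized signal for each gene, which behaves as estimated reads over 1 factor per library, with upper quartiles of 997.851 to 999.464. Of the values under 50 steps, 87.5% to 89.4% were whole multiples within 0.05, too few for a count test. The table has 1 more per-sample column under the PBS control heading, which no label names and which was left out.

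The 13581 genes with a mean of 10 or more entered limma 3.58.1 (R 4.3.3), run on log2(value + 1) with a mean-variance trend and Benjamini-Hochberg adjustment at 0.05. The code was tested on simulated data. Lengths and GC content (GENCODE M21, protein-coding transcripts where present, 99.5% of tested genes) served for a lowess correction (span 0.3) in each library. The sequences are RefSeq's (GRCm38.p6). The 10 members, the lists and the tests were chosen with earlier results of these data known. Named genes were the members, the listed genes and the 5 genes nearest to Klf15; 1 listed gene is counted but not reported here. Other settings covered the filter, pseudocount, scaling, length and GC, the replicate block and each heart left out.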

Additional observations from a re-analysis of the deposited data

How the results depend on the processing

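Each result was recomputed under 14 alternatives. Bcat2, Bckdha, Bckdhb, Bckdk, Ivd and Hibadh kept their direction and their side of the threshold in all 14, with log2 fold changes of -1.06 to -0.80, -1.22 to -0.81, -0.68 to -0.45, -0.58 to -0.33, -0.91 to -0.65 and -0.43 to -0.34. The members called lower numbered 6 or 7. The 1 member called higher became 0 with quantile normalization and with the length and GC correction, and 0 to 1 with a heart left out. Dbt ran from -0.2226 (without vehicle replicate 3) to 0.0061 (without vehicle replicate 1), a change of sign. The kinase to phosphatase difference was -0.42 after the length and GC correction and -0.84 to -0.73 with a heart left out. Transporters called higher numbered 2 with quantile normalization and with the length and GC correction, and 0 to 2 with a heart left out; those called lower numbered 0 to 1 with a heart left out. Klf15-linked genes called higher numbered 1 with the replicate block (Tat) and 1 with the length and GC correction, which left 2 lower. Klf15 inputs called higher numbered 1 to 3 with a heart left out. The 1 lower Kruppel-like factor became 0 with median-of-ratios scaling, quantile normalization and the length and GC correction, and 0 to 1 with a heart left out. The cause was not tested for any of these.

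The replicate number is only shared: deviations of same-numbered hearts correlated at 0.24, 0.02 and 0.50, and trametinib replicate 2 correlated best with vehicle replicate 1 (0.28). With the replicate block, members called stayed at 1 higher and 6 lower, and 2885 and 2877 of all genes were called higher and lower. Depth went with the groups, and low genes such as Bcat1, Twist2 and Tat rest on few reads.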
